A study of Mus musculus with 30 samples.

Results

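The G1 cyclins, their kinases and Myc are 9 genes that set whether a cell passes from growth into DNA replication. They are the D-type cyclins Ccnd1, Ccnd2 and Ccnd3, the kinases Cdk4 and Cdk6, the kinase inhibitors Cdkn1b, Cdkn2c and Cdkn2d, and the transcription factor Myc. They were chosen by symbol: the Ensembl identifiers of the count table were matched to these names, and all 9 were found among 55487 listed identifiers. All 9 also passed the filter on low counts, which left 17638 genes for testing. The samples come from mice that model oral squamous cell carcinoma: male C57BL/6J mice drink water with 4-nitroquinoline-1-oxide (4NQO), a DNA-damaging carcinogen. The labels give 3 samples as normal, 8 as hyperplasia, 7 as dysplasia, 6 as carcinoma in situ and 6 as invasive carcinoma. The same protocol stands on every sample, the normal ones included: 4NQO at 100 ug/mL in drinking water for 10 weeks, begun at 6 weeks of age. No genotype, second agent or age at collection is given, and whether the normal tissue saw the carcinogen is not stated. Nor are samples said to come from separate animals, so p-values reflect only how much these samples vary, which may be technical.

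D-type cyclins are made when growth signals reach a cell, and each of them activates Cdk4 or Cdk6. The active kinases phosphorylate the retinoblastoma protein and its relatives, which frees E2F factors to switch on the genes of DNA synthesis. Proteins of the INK4 family, among them the products of Cdkn2c and Cdkn2d, bind Cdk4 and Cdk6 directly, while the Cdkn1b product acts on cyclin-bound kinases. Myc pairs with Max, binds the E-box CACGTG and raises genes of ribosome production and growth. In stratified oral epithelium, dividing cells lie mainly in the basal layer.

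Total counts per sample ran from 17725604 to 28023098, and each of the 9 genes had at least 171 counts in every sample. Levels are given in CPM (counts scaled to a common library size), as mean ± SD, and log2 fold changes carry ± 1 standard error. A call means an adjusted p under 0.05 from edgeR's quasi-likelihood test, with Benjamini-Hochberg adjustment over all tested genes. The samples were whole tissue pieces, and fewer cells of a type and less RNA per cell cannot be told apart in them. Tissue make-up moved with stage. The summed level of 15 skeletal muscle markers ran from 60336 to 80705 CPM in normal samples and from 17965 to 44145 in invasive carcinoma, where 13 of 15 markers were lower. The summed level of 9 basal keratinocyte markers ran from 4535 to 5942 CPM in normal samples and from 8417 to 21489 in invasive carcinoma, where 8 of 9 were higher. Sample C12 set the invasive ends of 17965 and 21489, and the next invasive samples had 32648 and 15465. The summed level of 6 neutrophil markers, S100a8 and S100a9 among them, ran from 4.22 to 14.0 CPM in normal samples. It ran from 1289 to 7062 in invasive carcinoma, where 4 of 6 were higher. Such a sum mostly follows its most abundant genes, and the part of each gene was not examined. No marker in these lists was at 0 throughout. In 7 samples (D01, A08, B01, C04, C07, C05 and C12) 12 salivary gland markers summed to over 1000 CPM. Codes starting with A mark hyperplasia, those with B dysplasia, those with C either carcinoma and those with D normal tissue, so a batch that follows the letters cannot be told apart from stage except between the carcinoma groups.

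Of the 9 genes, 7 differed among the 5 stages, against 53.2% of all genes tested. The exceptions were Ccnd3 (adjusted p = 0.208) and Cdkn2d (adjusted p = 0.157). Against normal tissue, 3 of the 9 were called in hyperplasia, where 14.3% of all genes were, and 4 in dysplasia, where 25.7% were. The in situ stage had 5 called beside 37.6% of all genes, and the invasive stage 5 beside 46.1%. Over only 9 genes these shares lie near the background, and the counts are no result about the set. Without normal sample D02 the number of all genes called was 926 in place of 2519 in hyperplasia and 1282 in place of 4540 in dysplasia, so these background shares rest much on 1 library. The samples of a lesion stage and of normal tissue did not overlap for 3 genes with hyperplasia (14.6% of all genes) and 4 with dysplasia (20.6%). There were 4 such genes with carcinoma in situ (26.6%) and 5 with the invasive stage (32.4%). The median log2 fold change of the 9 genes against normal tissue was 0.25, 0.28, 0.15 and 0.21 in the 4 lesion stages in order, and that of all genes was 0.01, 0.01, 0.02 and 0.02. These comparisons share the same 3 normal samples.

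**Figure D1:**
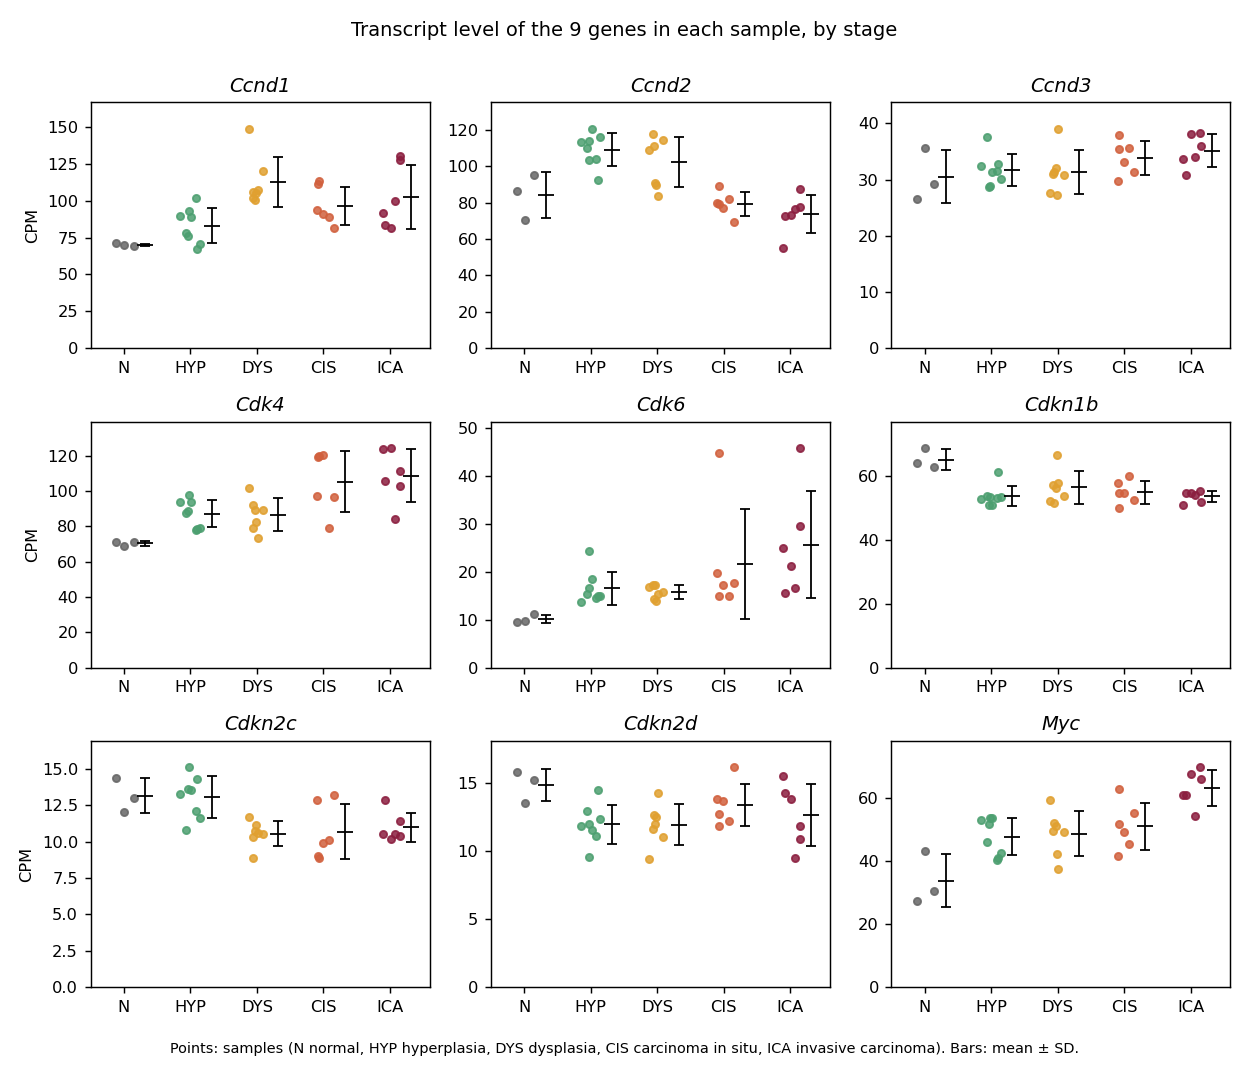
Level of each gene (CPM, y axis from 0) in each sample by stage (x axis); points are samples, and bars give the mean ± SD over 3, 8, 7, 6 and 6 samples. Ccnd1 is highest in dysplasia, Ccnd2 in hyperplasia and Myc in invasive carcinoma, and 1 carcinoma in situ and 1 invasive carcinoma sample stand far above the rest for Cdk6.

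Ccnd1, the D-type cyclin most often amplified in oral carcinoma, was higher in dysplasia and in both carcinoma stages than in normal tissue. The gene lies at chr7:144929931-144939925 on the minus strand of GRCm38 (ENSMUSG00000070348.5). Its level was 69.8, 69.3 and 71.0 CPM in the 3 normal samples, a narrow range. The lowest, median and highest hyperplasia samples had 67.0, 83.6 and 102 CPM, and these overlapped the normal samples. Dysplasia samples ran from 101 to 149 CPM with a median of 106, and all 7 lay above every normal sample. Carcinoma in situ ran from 81.8 to 113 CPM (median 92.3) and invasive carcinoma from 81.7 to 130 CPM (median 95.8), again with all 6 samples of each above every normal sample. The means were 70.04 ± 0.865 CPM (n = 3) in normal tissue and 113 ± 17.1 (n = 7) in dysplasia, a log2 fold change of 0.69 ± 0.15 (edgeR adjusted p = 0.0021). In hyperplasia the difference was 0.25 ± 0.14 and was not called (adjusted p = 0.259). The step from hyperplasia to dysplasia was itself a rise of 0.44 ± 0.11 (adjusted p = 0.0153), and 6 of 7 dysplasia samples exceeded every hyperplasia sample. Without dysplasia sample B06, the highest, that step was 0.37 (adjusted p = 0.0581). Carcinoma in situ rose by 0.46 ± 0.15 (adjusted p = 0.0171) and invasive carcinoma by 0.55 ± 0.15 (adjusted p = 0.00436). The carcinoma in situ call was lost when any of the 3 normal samples was left out, with adjusted p of 0.0518 without D01, 0.0718 without D02 and 0.0539 without D03. Exons of LTO1 on the opposite strand cover 23.4% of the Ccnd1 exon length. The kit keeps strand, but the strand setting of the counting is not given in the sources used here, so reads in that stretch cannot be assigned with certainty. LTO1 itself was 19.3 ± 1.90 CPM in normal tissue and 16.9 ± 2.88 in invasive carcinoma.

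Ccnd2 followed another course, with its highest level in hyperplasia and its lowest in invasive carcinoma. This D-type cyclin lies at chr6:127125162-127152193 on the minus strand (ENSMUSG00000000184.12). The normal samples had 70.6, 95.4 and 86.3 CPM. Hyperplasia ran from 92.3 to 121 CPM (median 112), and 7 of 8 samples lay above every normal sample. Dysplasia ran from 83.5 to 118 CPM (median 109), carcinoma in situ from 69.0 to 89.3 (median 79.5) and invasive carcinoma from 55.2 to 87.4 (median 75.01). Every invasive carcinoma sample was therefore below every hyperplasia sample, while the normal samples lay between and overlapped both. The mean went from 84.1 ± 12.5 CPM in normal tissue (n = 3) to 109 ± 8.95 in hyperplasia (n = 8), a rise of 0.38 ± 0.12 on the log2 scale (adjusted p = 0.029). That rise was not called without D01 (0.26, adjusted p = 0.203), without D03 (adjusted p = 0.082) or without A03 (adjusted p = 0.0546). Dysplasia differed from normal tissue by 0.28 ± 0.12 and was not called (adjusted p = 0.0753), although it was without B01 (0.33, adjusted p = 0.0335). Without D01 it was 0.18 (adjusted p = 0.357). The level fell by 0.36 from dysplasia to carcinoma in situ (SE 0.09, adjusted p = 0.0256), the 1 gene of the 9 called at that step, where 5.47% of all genes were. The call was lost without any of 7 single samples (B02, B03, B04, B06, C07, C10 or C11), with adjusted p from 0.0515 to 0.0707. Between hyperplasia and invasive carcinoma Ccnd2 fell by 0.56 on the log2 scale (SE 0.09, adjusted p = 6.16e-05), and this call held in each of the 30 fits that left out 1 sample, with changes of -0.62 to -0.49. Invasive carcinoma and normal tissue differed by -0.19 ± 0.12, which was not called (adjusted p = 0.197). Without D02 this was -0.08 (adjusted p = 0.677).

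Ccnd3, the third D-type cyclin, showed no called difference in any of the 8 comparisons. It lies at chr17:47505051-47599691 on the plus strand (ENSMUSG00000034165.16). The normal samples had 35.7, 29.3 and 26.5 CPM, and invasive carcinoma ran from 30.9 to 38.3 CPM with a median of 35.0. The stages overlapped throughout. The difference between invasive carcinoma (35.2 ± 2.90 CPM, n = 6) and normal tissue (30.5 ± 4.71, n = 3) was 0.21 ± 0.11 (adjusted p = 0.109). Without normal sample D01, which held the highest of the 3 values, it was 0.35 (adjusted p = 0.0156), and the in situ difference (adjusted p = 0.0458) and that among all 5 stages (adjusted p = 0.0386) were then called too, so 1 normal sample decides these results.

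The share of Ccnd1 in the D-type cyclin transcripts of the tissue, called the pool here, differed between stages. Counts were divided by merged exon length to compare the genes, and each share is the percentage of the summed counts per kilobase of the 3 cyclins. The levels of the shares rest on these lengths. In CPM, Ccnd2 exceeded Ccnd1 in normal tissue (means of 84.1 and 70.04) and in hyperplasia (109 and 83.1). Ccnd1 made up 52.2%, 55.3% and 56.2% of the pool in the 3 normal samples. Its share was 53.5% ± 3.42 in hyperplasia (n = 8) and 62.3% ± 3.39 in dysplasia (n = 7). The carcinomas had 62.4% ± 1.98 (in situ, n = 6) and 64.4% ± 3.81 (invasive, n = 6). All samples from dysplasia on lay above every normal sample, while the hyperplasia samples spread around the normal ones. In exact two-sided permutation tests, adjusted over 10 comparisons of shares, the differences from normal tissue were 7.69 points in dysplasia and 7.83 and 9.81 points in the in situ and invasive stages, each with an adjusted p of 0.0238. Their raw p-values, 0.00833 in dysplasia and 0.0119 in the carcinomas, are the smallest that such tests can give at these group sizes. With any normal sample left out the adjusted p of these 3 differences ran from 0.0714 to 0.111, with fewer arrangements to permute. For invasive carcinoma the same happened without C03, C05, C09 or C12 (adjusted p = 0.0714). Hyperplasia differed from normal tissue by -1.04 points (exact permutation adjusted p = 0.624). Invasive carcinoma exceeded hyperplasia by 10.9 points (exact permutation adjusted p = 0.00666), and that call was kept in all 30 fits with 1 sample left out. Ccnd2, whose share was not tested, held 32.7% ± 3.85 of the pool in normal tissue, 35.4% ± 2.66 in hyperplasia and 28.3% ± 3.10 in dysplasia. Its share was 25.8% ± 1.61 in situ and 23.5% ± 2.86 in the invasive stage. Ccnd3 held between 9.41% and 12.8% of the pool in the stage means. Counted without dividing by exon length, the Ccnd1 share differed from normal tissue by -1.01, 7.70, 7.91 and 10.15 points in stage order. The shares were not fitted with tissue marker scores, so the part of tissue make-up in them was not tested.

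**Figure D2:**
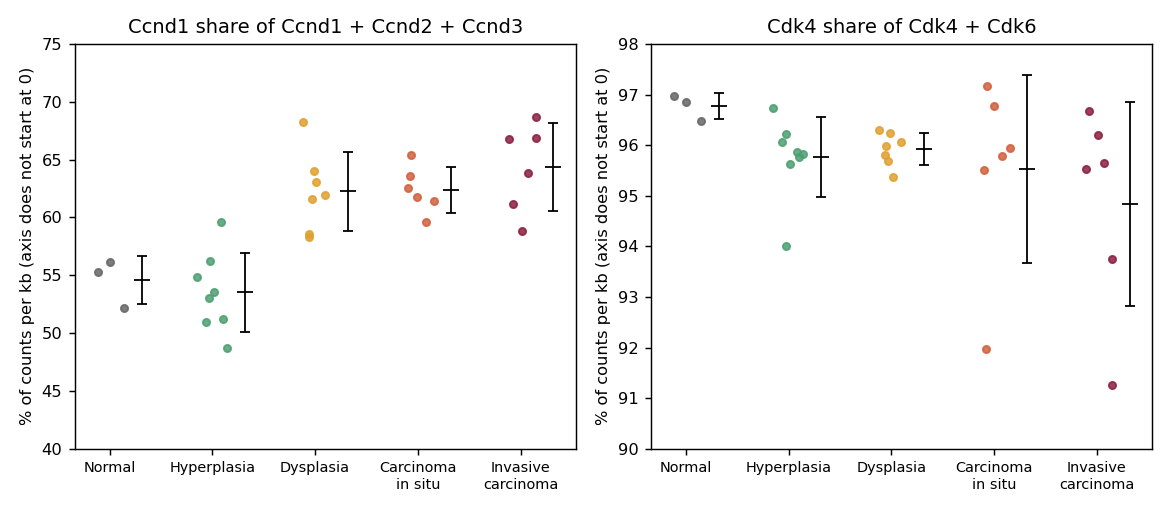
Share of Ccnd1 in the summed D-type cyclin counts per kilobase (left, %) and share of Cdk4 in Cdk4 plus Cdk6 (right, %), by stage; points are samples, bars the mean ± SD, and the y axes do not start at 0. The Ccnd1 share is 54.6% on average in normal tissue and 62.3% to 64.4% from dysplasia on, while the Cdk4 share of counts per kilobase stays above 91% in every sample. Both shares rest on the exon lengths used.

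Cdk4, the more abundant of the kinases that D-type cyclins activate, was higher in both carcinoma stages than in normal tissue. It lies at chr10:127063534-127067920 on the plus strand (ENSMUSG00000006728.12). RefSeq promoter windows (GRCm38.p6) were at hand for 6 of the 9 genes, and not for Ccnd1, Ccnd2 and Myc. The windows below hold the 250 bases before the RefSeq start of Cdk4 (chr10:127063285-127063534, plus strand) and of Cdk6 (chr5:3343643-3343892, plus strand), 5′ to 3′. They are shown because these are the members' windows that hold the E-box letters. Capitals mark CACGTG, which reads the same on both strands.
Cdk4: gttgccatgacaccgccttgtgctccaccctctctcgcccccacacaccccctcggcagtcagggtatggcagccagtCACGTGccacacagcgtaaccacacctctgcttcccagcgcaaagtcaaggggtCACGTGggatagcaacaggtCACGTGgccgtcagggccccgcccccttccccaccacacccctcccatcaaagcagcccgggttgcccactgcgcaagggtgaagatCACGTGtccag
Cdk6: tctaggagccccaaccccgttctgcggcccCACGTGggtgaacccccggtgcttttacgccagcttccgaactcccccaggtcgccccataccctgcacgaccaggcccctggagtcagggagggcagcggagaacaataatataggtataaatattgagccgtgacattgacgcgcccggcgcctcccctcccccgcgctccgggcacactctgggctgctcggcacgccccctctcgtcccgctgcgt
The Cdk4 window holds 4 copies, which begin 172, 118, 98 and 11 bases before the start, and the Cdk6 window holds 1, which begins 220 bases before it. Among all 32851 RefSeq windows of this length, 6.02% hold CACGTG at least once and 7 windows (0.0213%) hold it 4 or more times. None of the windows of Ccnd3, Cdkn1b, Cdkn2c and Cdkn2d holds it. The E2F pattern was searched on both strands in a loose form, TTTNNCGC with any base at N. This loose form was in the Cdk6 window only (4.28% of all windows), with T and A at N. The AP-1 pattern TGANTCA, searched likewise, was in none of the members' windows (6.75% of all). A match is a description of letters and not evidence of binding.

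Cdk4 had 68.9, 71.0 and 71.2 CPM in the normal samples. Hyperplasia ran from 78.2 to 97.9 CPM (median 87.9) and dysplasia from 73.3 to 102 (median 89.0). Carcinoma in situ ran from 78.9 to 120 CPM (median 108) and invasive carcinoma from 84.1 to 124 (median 108). Every lesion sample, of any stage, lay above every normal sample. The mean was 70.4 ± 1.28 CPM (n = 3) in normal tissue and 109 ± 15.0 (n = 6) in invasive carcinoma, a rise of 0.63 ± 0.12 (adjusted p = 0.00024), and the rise in carcinoma in situ was 0.58 ± 0.12 (adjusted p = 0.000862). Both calls held without any single sample. The differences in hyperplasia (0.31 ± 0.12, adjusted p = 0.0756) and dysplasia (0.30 ± 0.12, adjusted p = 0.0626) were not called, although no sample overlapped. The dysplasia difference passed without B01 (adjusted p = 0.0399), C04 (adjusted p = 0.0495) or C05 (adjusted p = 0.0443), all of them rich in salivary transcripts. It did not pass without D01, A08, C07 or C12, which are rich in them too. C04 and C05 belong to neither group compared, and without C04 the difference stayed at 0.30. Invasive carcinoma exceeded hyperplasia by 0.32 ± 0.09 (adjusted p = 0.00776). Exons of Tspan31 on the opposite strand cover 19.7% of the Cdk4 exon length, and Tspan31 moved the same way, from 45.6 ± 5.72 CPM in normal tissue to 59.7 ± 6.21 in invasive carcinoma. Whether its reads entered the Cdk4 count was not tested.

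Cdk6, the other kinase of the D-type cyclins, had the largest log2 fold change among the 9 genes in each of the 4 comparisons except dysplasia, where Ccnd1 exceeded it. It lies at chr5:3341485-3531008 on the plus strand (ENSMUSG00000040274.11). The normal samples had 9.65, 11.1 and 9.54 CPM, and every lesion sample was above them. Hyperplasia ran from 13.7 to 24.3 CPM (median 15.2), dysplasia from 13.8 to 17.3 (median 15.8), carcinoma in situ from 14.9 to 44.8 (median 17.5) and invasive carcinoma from 15.7 to 45.8 (median 23.0). Single samples carried much of the carcinoma means: C02 had 44.8 CPM where the other 5 carcinoma in situ samples had at most 19.7, and C12 had 45.8 where the next invasive sample had 29.6. C12 also had the highest basal keratinocyte marker sum (21489 CPM) and the lowest skeletal muscle sum (17965 CPM) of all samples. C02 had the highest basal keratinocyte sum of its stage (12883 CPM). Whether make-up has a part in these Cdk6 values was not tested. The rise over normal tissue was 1.09 ± 0.31 in carcinoma in situ (adjusted p = 0.00694) and 1.34 ± 0.31 in invasive carcinoma (adjusted p = 0.00105). Without C02 the first was 0.74 (adjusted p = 0.019), and without C12 the second was 1.09 (adjusted p = 0.00261). Hyperplasia (0.71 ± 0.29, adjusted p = 0.1) and dysplasia (0.64 ± 0.30, adjusted p = 0.107) were not called. Without C02 they were called with adjusted p of 0.0327 and 0.0365. The excess of invasive carcinoma over hyperplasia, 0.63 ± 0.22 (adjusted p = 0.0253), was lost without C12 (0.38, adjusted p = 0.153). Per kilobase of exon, Cdk6 remained the minor kinase: Cdk4 made up 96.8% ± 0.259 of Cdk4 plus Cdk6 in normal tissue and 94.8% ± 2.02 in invasive carcinoma (exact permutation adjusted p = 0.17). Of the 5 comparisons of this share, the exact permutation test called dysplasia against normal, -0.85 points (adjusted p = 0.0238). Counted without dividing by exon length, which weighs Cdk6 more, this difference was -2.90 points and that of invasive carcinoma -6.12, with the same calls (exact permutation adjusted p = 0.0238 and 0.17). The dysplasia call was not kept without D01, D02 or D03, where the adjusted p ran from 0.0714 to 0.0893. With fewer arrangements to permute there, this loss does not show that the call rests on any of them.

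**Figure D3:**
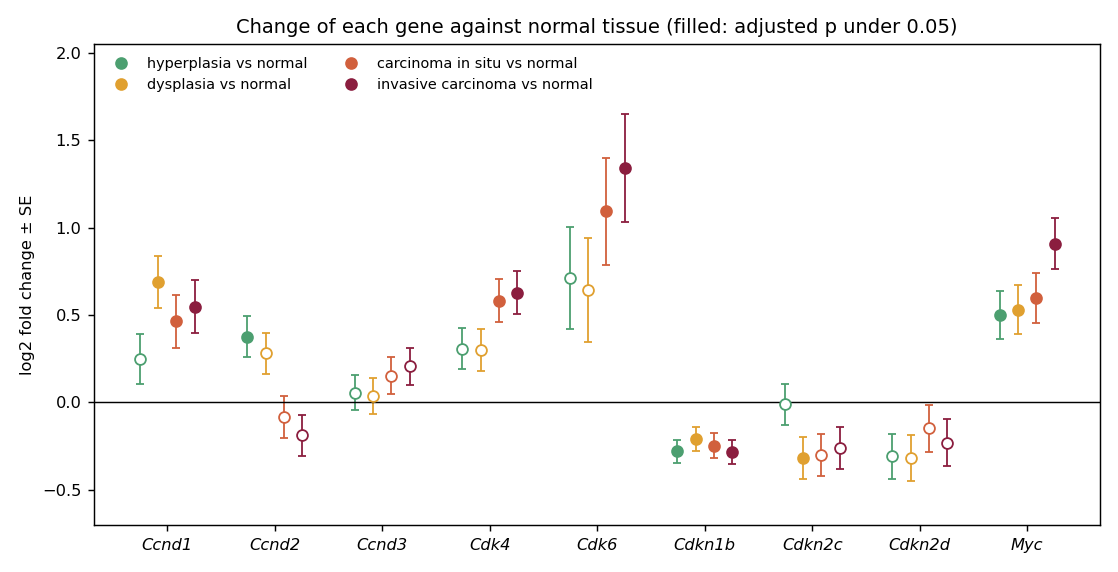
Log2 fold change ± SE (y axis) of each gene (x axis) in the 4 lesion stages against the 3 normal samples; filled points have an adjusted p under 0.05. Myc and Cdkn1b are filled in all 4 stages, Ccnd1 from dysplasia on, Cdk4 and Cdk6 in the carcinomas, Ccnd2 in hyperplasia alone and Cdkn2c in dysplasia alone.

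Among the inhibitors, Cdkn1b was lower than normal in all 4 lesion stages. Its product restrains cyclin-bound kinases and is high in resting cells. The gene lies at chr6:134920401-134925513 on the plus strand (ENSMUSG00000003031.14). The normal samples had 68.7, 62.7 and 63.9 CPM. Hyperplasia ran from 50.8 to 61.1 CPM (median 53.2), dysplasia from 51.5 to 66.6 (median 56.1), carcinoma in situ from 49.97 to 59.97 (median 54.6) and invasive carcinoma from 50.9 to 55.3 (median 54.3). Except for dysplasia sample B05, with 66.6 CPM, every lesion sample was below every normal sample. On the log2 scale the level fell by 0.28 in hyperplasia (SE 0.07, adjusted p = 0.00559) and by 0.21 in dysplasia (SE 0.07, adjusted p = 0.0255). It fell by 0.25 in the in situ stage (SE 0.07, adjusted p = 0.00684) and by 0.28 in the invasive stage (SE 0.07, adjusted p = 0.00174). Without normal sample D01, the highest, the calls in dysplasia (adjusted p = 0.127) and carcinoma in situ (adjusted p = 0.0553) were lost, and without D02 that in dysplasia (adjusted p = 0.0549). The difference among all 5 stages also missed the threshold without D01 (adjusted p = 0.0576). No step between lesion stages was called, and invasive carcinoma differed from hyperplasia by -0.0026 ± 0.0536.

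Of the INK4-family inhibitors that bind Cdk4 and Cdk6, Cdkn2c was lower in dysplasia and Cdkn2d showed no called difference. Cdkn2c (chr4:109660876-109667189, minus strand, ENSMUSG00000028551.14) had 12.03, 13.01 and 14.4 CPM in normal samples and 10.8 to 15.1 in hyperplasia (median 13.4). It ran from 8.89 to 11.7 CPM in dysplasia (median 10.6), where all 7 samples lay below every normal sample. The fall in dysplasia was 0.32 against normal tissue (SE 0.12, adjusted p = 0.047) and 0.31 against hyperplasia (SE 0.09, adjusted p = 0.0426). Of the 9 genes, Cdkn2c and Ccnd1 were the 2 called between hyperplasia and dysplasia, where 5.18% of all genes were. Both Cdkn2c calls lie close to the threshold: of 30 fits that each left out 1 sample, 18 lost the first (adjusted p up to 0.223) and 19 the second (up to 0.108). The carcinomas were at 10.7 ± 1.89 CPM in situ and 10.98 ± 1.01 when invasive (n = 6 each), and their differences from normal tissue, -0.30 ± 0.12 and -0.26 ± 0.12, were not called (adjusted p = 0.0506 and 0.0796). The first was called without A02, B04, B06, C01 or C11 (adjusted p from 0.0196 to 0.0495) and the second without C08 (adjusted p = 0.0475). Cdkn2d (chr9:21288410-21291407, minus strand, ENSMUSG00000096472.2) had 13.5, 15.2 and 15.8 CPM in normal samples. Its lesion samples ran from 9.40 to 16.2 CPM, and the stages overlapped. None of its differences from normal tissue was called, from -0.32 ± 0.13 in dysplasia (adjusted p = 0.0724) to -0.15 ± 0.13 in carcinoma in situ (adjusted p = 0.404). Without B01 the dysplasia difference was called (adjusted p = 0.0363), and without A04 that in hyperplasia (adjusted p = 0.0458).

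Myc was higher than normal in every lesion stage and highest in invasive carcinoma. The gene lies at chr15:61985391-61990374 on the plus strand (ENSMUSG00000022346.16). The normal samples had 43.2, 30.6 and 27.3 CPM, a wide range in which D01 reached into the lower lesion samples. Hyperplasia ran from 40.2 to 53.5 CPM (median 48.8), dysplasia from 37.4 to 59.3 (median 49.5), carcinoma in situ from 41.5 to 62.7 (median 50.5) and invasive carcinoma from 54.2 to 69.7 (median 63.5). All 6 invasive samples lay above every normal and every hyperplasia sample, whereas the other lesion stages each overlapped the normal samples through D01. Normal tissue had a mean of 33.7 ± 8.39 CPM (n = 3), hyperplasia 47.7 ± 5.90 (n = 8) and invasive carcinoma 63.2 ± 5.68 (n = 6). The rise over normal tissue was 0.50 ± 0.14 in hyperplasia (adjusted p = 0.0148) and 0.53 ± 0.14 in dysplasia (adjusted p = 0.00743). It was 0.60 ± 0.14 in the in situ stage (adjusted p = 0.00217) and 0.91 ± 0.15 in the invasive stage (adjusted p = 3.43e-05). The hyperplasia call was lost without D02 (0.42, adjusted p = 0.156) or D03 (0.36, adjusted p = 0.161), and the dysplasia call without D02 (adjusted p = 0.0885) or D03 (adjusted p = 0.0874). The carcinoma calls held without any single sample. From hyperplasia to invasive carcinoma Myc rose by 0.41 ± 0.11 (adjusted p = 0.00373), and this too held without any single sample. No step between neighbouring lesion stages was called for Myc: dysplasia exceeded hyperplasia by 0.03 ± 0.10 (adjusted p = 0.898) and carcinoma in situ exceeded dysplasia by 0.07 ± 0.11 (adjusted p = 0.761). The step to invasive carcinoma was larger, 0.31 ± 0.11 (adjusted p = 0.628).

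Carcinoma in situ and invasive carcinoma could not be separated by any of the 9 genes. edgeR called 0 of 17638 genes between these stages (0.0%), with 1259 at an unadjusted p under 0.05, and DESeq2 and limma-voom called 0 as well. Myc came nearest among the 9, with 51.0 ± 7.49 CPM in situ and 63.2 ± 5.68 in invasive carcinoma, with an unadjusted p of 0.0101, and 3 of 6 invasive samples exceeded every in situ sample. Between hyperplasia and invasive carcinoma 6 of the 9 genes were called, against 38.4% of all genes, and the groups did not overlap for Ccnd2 and Myc, against 7.86% of all. Ccnd1, Cdk4, Cdk6 and Myc were higher in invasive carcinoma and Ccnd2 and Cdkn2c lower. The Ccnd1 part, 0.30 ± 0.11 (adjusted p = 0.035), was lost without any of A01, A02, A04, A05, C03 or C12, with adjusted p from 0.0568 to 0.124. The Cdkn2c part, -0.25 ± 0.09 (adjusted p = 0.0367), was lost in 15 of 30 such fits (adjusted p up to 0.114).

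Per kilobase of exon, the order of mean levels in normal tissue was Cdk4 (21.7 CPM per kb), Ccnd1 (14.9), Cdkn1b (14.3), Myc (12.4), Cdkn2d (9.43), Ccnd2 (8.94), Cdkn2c (4.90), Ccnd3 (3.47) and Cdk6 (0.723). In invasive carcinoma Cdk4 (33.5 CPM per kb) still led, Myc (23.3) and Ccnd1 (21.8) followed, and Cdkn1b (11.8) came next. Ccnd1 and Cdkn1b had 14.9 ± 0.184 and 14.3 ± 0.695 CPM per kb in normal tissue, and 21.8 ± 4.59 and 11.8 ± 0.384 in invasive carcinoma. These orders rest on the exon lengths used: in CPM, Ccnd2 had the highest mean in normal tissue (84.1).

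The changes were read beside the tissue make-up, because muscle and basal keratinocyte transcripts moved in the same stages. With the skeletal muscle marker score as a covariate, the 3 hyperplasia calls (Ccnd2, Cdkn1b and Myc) all remained, 0 of 4 remained in dysplasia, Cdk4 alone remained in the in situ stage and Myc alone in the invasive one. With the basal keratinocyte marker score instead, the same 3 genes were called in hyperplasia, Ccnd1 alone in dysplasia, 0 in the in situ stage and Myc alone in the invasive one. A lost call was not always a smaller difference: with the muscle score, dysplasia differed from normal tissue by -0.31 for Cdkn2c (-0.32 without it), by 0.38 for Ccnd1 (0.69 without it) and by 0.28 for Myc (0.53 without it). Myc rose in invasive carcinoma by 0.60 ± 0.15 with the muscle score (adjusted p = 0.0115) and by 0.64 ± 0.19 with the keratinocyte score (adjusted p = 0.0494). Cdk6 in invasive carcinoma went from 1.34 without a score to 0.71 ± 0.35 with the muscle score and to 0.30 ± 0.31 with the keratinocyte score (adjusted p = 0.196 and 0.646). The fall of Ccnd2 between hyperplasia and invasive carcinoma was as large or larger with either score, 0.66 and 0.75 on the log2 scale (adjusted p = 0.000475 and 0.000807). The other calls between these stages were lost with either score. Cdkn2c kept its size there, -0.24 with the muscle score and -0.29 with the keratinocyte score, while the differences of Ccnd1, Cdk4, Cdk6 and Myc were smaller. The scores follow stage closely, so stage and make-up cannot be told apart fully in these fits, and the part of each cell type in the changes was not tested. With the 7 samples rich in salivary transcripts left out, a choice made after seeing the data, 3, 5, 3 and 7 of the 9 genes were called against normal tissue in stage order. Ccnd2 in hyperplasia and Ccnd1 in carcinoma in situ were then among those not called.

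**Figure D4:**
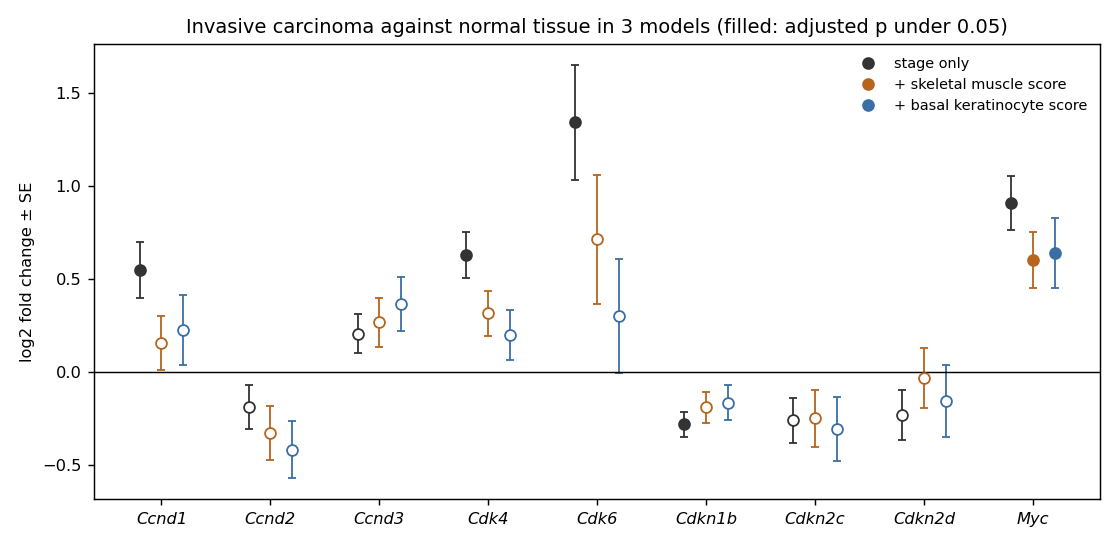
Log2 fold change ± SE (y axis) of each gene (x axis) in 6 invasive carcinoma against 3 normal samples, from models with stage only, with a skeletal muscle marker score and with a basal keratinocyte marker score; filled points have an adjusted p under 0.05. Only Myc is filled in all 3 models, and Cdk6 moves from 1.34 to 0.71 and 0.30.

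The partners of the 9 genes were read from 6 lists. Among all genes, 8.22%, 13.3%, 19.4% and 23.4% were called higher than normal in the 4 lesion stages in order, and 6.07%, 12.4%, 18.2% and 22.7% lower. Of 20 genes that E2F switches on for DNA synthesis, 16 rose in hyperplasia, 11 in dysplasia and 19 in each carcinoma stage, and none fell in these 4 stages; their median log2 fold changes were 0.75, 0.49, 0.77 and 0.89. Of 18 mitosis genes, 11, 2, 13 and 14 rose in the same order and none fell. Compared directly, dysplasia and hyperplasia differed by a median of -0.20 over the E2F genes, 2 of which were called lower, and by a median of -0.18 over the mitosis genes, none of which edgeR called. Mcm5, a subunit of the replicative helicase, had 11.2 ± 2.11 CPM in normal tissue, 31.1 ± 4.01 in hyperplasia, 27.6 ± 5.85 in dysplasia and 41.4 ± 9.74 in invasive carcinoma, with a rise of 1.46 already in hyperplasia (adjusted p = 4.86e-05). Rrm1, the large subunit of ribonucleotide reductase, fell between hyperplasia and dysplasia from 81.4 ± 8.67 to 60.9 ± 6.51 CPM (adjusted p = 0.0201). Lig1, the DNA ligase of lagging-strand synthesis, rose from 10.8 ± 2.20 CPM in normal tissue to 19.9 ± 2.21 in hyperplasia. The mitotic genes Birc5, Aurkb, Ttk and Cdk1 each rose in hyperplasia and in both carcinomas and were not called in dysplasia, where their differences from normal tissue were 0.21, 0.33, 0.29 and 0.15.

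A further list held 21 Myc targets of ribosome production and growth. Called higher than normal were 4 in hyperplasia, 12 in dysplasia, 15 in the in situ and 16 in the invasive stage, with none lower, and their median log2 fold changes were 0.18, 0.37, 0.43 and 0.47. Between hyperplasia and invasive carcinoma 14 of 21 rose, against 19.1% of all genes called higher, while 4 of 20 E2F genes and 1 of 18 mitosis genes did. Srm, which makes spermidine, went from 20.2 ± 2.57 CPM in normal tissue to 25.4 ± 3.35 in hyperplasia, where it was not called, and to 34.4 ± 3.49 in dysplasia, a step of 0.44 from hyperplasia (adjusted p = 0.00498). Nop56, a protein of the ribosomal RNA methylation complex, rose from 42.04 ± 3.01 CPM in normal tissue to 62.9 ± 5.42 in hyperplasia and 76.5 ± 7.29 in invasive carcinoma. Fbl, the methyltransferase of that complex, was 45.3 ± 3.04 CPM in normal tissue and 75.2 ± 7.08 in invasive carcinoma. Of 11 genes of the wider Myc network 10 were tested, and 3 rose and 2 fell in invasive carcinoma. Mlx, a Max-like dimer partner, rose from 34.8 ± 2.28 to 51.5 ± 5.41 CPM (0.57, adjusted p = 3.84e-05). Mycl, a relative of Myc, fell in every lesion stage, from 31.3 ± 2.84 CPM in normal tissue to 16.3 ± 2.55 in hyperplasia and 14.7 ± 3.76 in invasive carcinoma. Mlxip, which pairs with Mlx, was lower in both carcinomas, at 68.4 ± 16.1 CPM in normal tissue and 45.04 ± 6.27 in invasive carcinoma. Mnt, a repressor that pairs with Max, rose from hyperplasia to dysplasia by 0.34 (adjusted p = 0.0187) and differed from normal tissue by 0.03 in invasive carcinoma.

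Of 22 partners of the G1 kinases, 8 rose and 1 fell in hyperplasia, 9 and 2 in dysplasia, 12 and 4 in the in situ stage and 12 and 5 in the invasive one. Cdkn2b, the INK4-family inhibitor that answers to TGF-beta, had 7.79 ± 0.129 CPM in normal tissue, 10.8 ± 1.66 in hyperplasia and 14.2 ± 1.71 in invasive carcinoma, so this family member rose (0.87, adjusted p = 2.55e-05) where Cdkn2c and Cdkn2d were not called. Cdkn2a, the INK4-family gene whose products are p16 and ARF, was also higher than normal in all 4 lesion stages. It had 0.168 ± 0.0525 CPM in normal tissue, near the floor, 3.14 ± 0.932 in hyperplasia and 6.78 ± 1.16 in invasive carcinoma. It passed the filter on low counts through its lesion samples, so the size of its rise cannot be judged. Cks1b, a cofactor in the destruction of the Cdkn1b protein, was 8.13 ± 1.32 CPM in normal tissue and 19.6 ± 4.23 in invasive carcinoma (1.27, adjusted p = 4.28e-05), and its differences in hyperplasia and dysplasia were not called. Rbl1, the retinoblastoma relative that E2F itself raises, rose from 16.2 ± 2.58 CPM to 28.0 ± 2.75 in hyperplasia and 35.0 ± 5.72 in invasive carcinoma. Of 19 regulators of the D-type cyclins, 2 fell in hyperplasia, 4 in dysplasia, 7 in the in situ and 6 in the invasive stage, and 3 rose in each carcinoma stage. Stat3, a transcription factor downstream of cytokines, rose from 136 ± 8.87 CPM in normal tissue to 191 ± 14.6 in invasive carcinoma (0.48, adjusted p = 0.000162). In the same comparison Stat5a, a related factor, fell from 16.9 ± 1.996 to 11.9 ± 1.85 CPM, and Foxo4, a forkhead factor of resting cells, from 109 ± 14.7 to 63.3 ± 12.02. Fbxo31, part of a ubiquitin ligase for cyclin D1, fell from 183 ± 98.8 to 78.0 ± 14.2 CPM, with a wide spread among the normal samples. Against the shares of all genes given above, fewer of these regulators were called higher at each stage and more were called lower. Over only 19 genes these are differences of a few genes and no result about the list. Skeletal muscle and basal keratinocyte markers moved in the same comparisons, as given above, and their part in these lists was not tested.

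**Figure D5:**
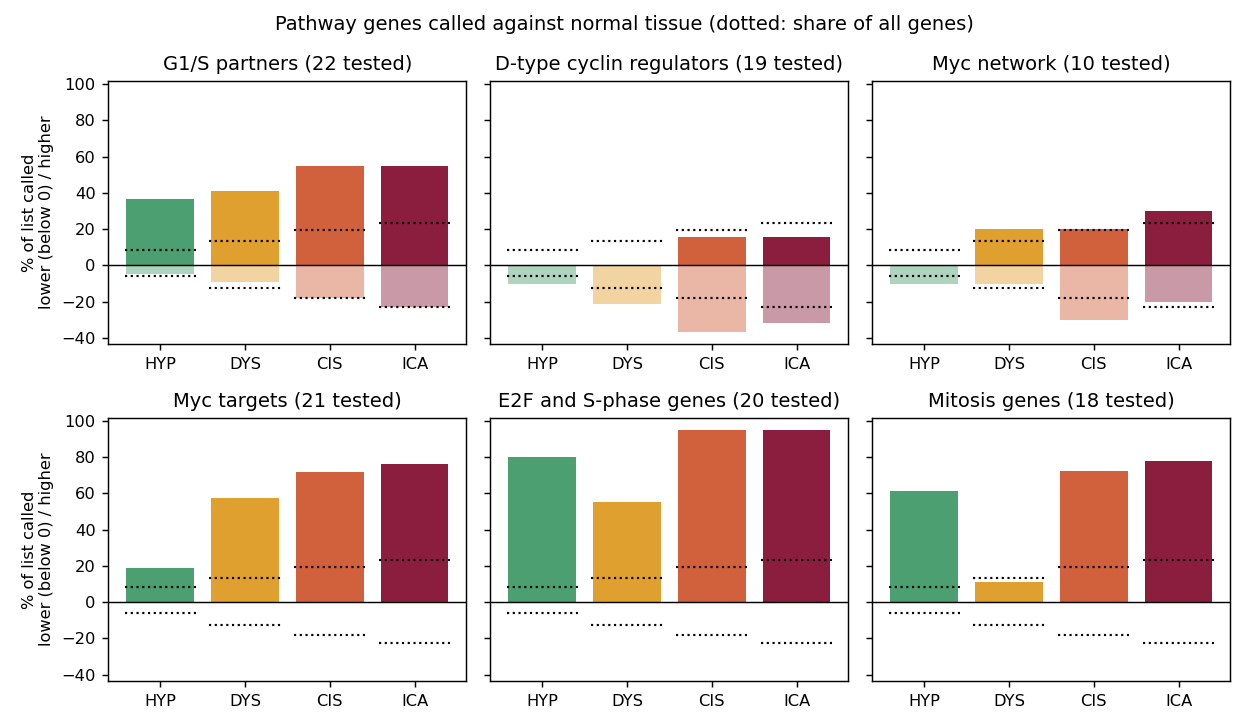
Share (%, y axis) of 6 gene lists called higher (above 0) or lower (below 0, paler) than normal tissue in hyperplasia (HYP), dysplasia (DYS), carcinoma in situ (CIS) and invasive carcinoma (ICA); dotted lines give the share of all genes tested. Of the E2F and S-phase genes 16 of 20 are higher in hyperplasia and 19 of 20 in invasive carcinoma, whereas the Myc targets go from 4 to 16 of 21.

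The genes whose levels ran most like each member's were sought among 9678 protein-coding genes whose mean level reached 10 CPM, by Pearson's r of log2 CPM over the 30 samples. These correlations describe samples that share stage and tissue make-up. Cdk4 had the closest companions: Txndc17, a thioredoxin-like protein (r = 0.949), Rpl13a, a ribosomal protein (0.944), and Tfdp1, the dimer partner of E2F factors (0.943). With stage means removed these were 0.916, 0.881 and 0.871. Cdk6 ran most like Adm, which encodes adrenomedullin (r = 0.905), Samd12 (0.905) and Prpsap2 (0.902). By rank correlation (Spearman's rho) these were 0.777, 0.801 and 0.887, while the Cdk4 companions had 0.956, 0.925 and 0.942. Myc ran most like Ajuba, a LIM-domain protein of cell junctions (0.893), Myd88, the adaptor of Toll-like and interleukin-1 receptors (0.883), and Il1f9, an interleukin-1 family cytokine of epithelium (0.873). Ccnd1 ran most like Hspa1b, a heat-shock protein (0.833), Plxnb2 (0.812) and Phrf1 (0.81), and with stage means removed these were 0.604, 0.668 and 0.635. For the other 5 genes the highest r was lower, from 0.711 for Cdkn2c with Hmgn5 to 0.761 for Cdkn1b with Ces1d. For Cdkn1b, Cyp2f2 (0.743) and Lrrc30 (0.741) came next, and for Cdkn2c, Rpa1 (0.706) and Arhgap10 (0.672). Ccnd2 was most like Zfp445 (0.759), Efna3 (0.751) and Megf6 (0.746). Ccnd3 was most like Pitpnm1 (0.748), Aup1 (0.729) and Ssbp4 (0.717), and Cdkn2d like Mrps35 (0.742), Higd2a (0.717) and Tmem256 (0.717).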

How the data were processed

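Transcript levels were measured by RNA sequencing with a stranded mRNA kit, per the labels' protocols. Per the submitters' processing notes, the tools were cutadapt 2.4 and STAR 2.7.2a and the build GRCm38. Strand setting, counting tool and annotation release are not given in the sources used here. The authors deposited raw counts per Ensembl gene. Of 55487 identifiers 99.5% matched GENCODE M21, which gave symbols, positions and exon lengths.

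edgeR 4.0.16 in R 4.3.3 was fitted with TMM factors (0.892 to 1.06), the default expression filter and 1 mean per stage to all 30 samples, with 8 two-sided comparisons and a 5-stage test. The biological coefficient of variation was 24%. Simulated data had 17638 genes, of which 67 were changed 1.5-fold, 67 were changed 2-fold and 66 were changed 4-fold. On them the test recovered 41.5% of 1.5-fold and 71.6% of 2-fold changes between hyperplasia and normal. Between invasive carcinoma and normal it recovered 39.4% and 59.7%. In these comparisons, in that order, 7.1% and 4.5% of its calls were false. The real data gave far more calls there, 2519 and 8127. These rates therefore describe the simulated setting and need not hold for the members' tests. Shares were tested with exact permutation (Python 3.11.15, numpy 2.4.6), and rank correlations used scipy 1.17.1. Alternatives used DESeq2 1.42.0 and limma 3.58.1, among others.

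Named genes are the 9 members, up to 4 genes per list with the smallest adjusted p for any stage difference, and the 3 genes most like each member. Members and lists were chosen with earlier results of these data known. No sample was left out.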

Additional observations from a re-analysis of the deposited data

Results flagged for a closer look

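In 9 of 44 stage groups of 4 to 10 samples, the highest or lowest sample stood apart from the others by more than Dixon's 95% limit, where chance gives about 5%. Cdk6 was 44.8 CPM in carcinoma in situ sample C02 and 24.3 CPM in hyperplasia sample A05, each far above the rest of its stage. The same samples had the lowest share of Cdk4 in Cdk4 plus Cdk6 of their stages, 92.0% in C02 and 94.0% in A05. Ccnd1 was 149 CPM in dysplasia sample B06. Ccnd3 was 37.6 CPM in hyperplasia sample A02 and 39.0 CPM in dysplasia sample B01. Cdkn1b was 61.1 CPM in hyperplasia sample A04 and 66.6 CPM in dysplasia sample B05, the highest of their stages.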

How the results depend on the processing

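With RLE or upper-quartile factors and with DESeq2, the number of genes called among the 9 stayed within 1.5 times that of the fit described above in every comparison. Without the expression filter the number was 2 of 9 in dysplasia against normal, 1 in dysplasia against hyperplasia, 0 in carcinoma in situ against dysplasia and 3 in invasive carcinoma against hyperplasia. The skeletal muscle score as a covariate gave 0, 1 and 1 in dysplasia and the 2 carcinoma stages against normal, 0, 2 and 1 in dysplasia against hyperplasia, carcinoma in situ against dysplasia and invasive carcinoma against hyperplasia, and 4 among the 5 stages. The basal keratinocyte score gave 1, 0 and 1 against normal in these stages, 0 in dysplasia against hyperplasia, 1 in invasive carcinoma against hyperplasia and 4 among the 5 stages; there the differences of Cdk4 and Cdk6 between invasive carcinoma and hyperplasia turned to -0.025 and -0.22, neither called. The salivary score gave 2 in carcinoma in situ against dysplasia, and removing muscle, salivary and mitochondrial genes gave 1 in dysplasia against hyperplasia. A fit of only the 2 stages compared gave 5 in hyperplasia against normal and 0 in carcinoma in situ against dysplasia. limma-voom gave 6 in hyperplasia and 8 in dysplasia against normal, 2 in carcinoma in situ against dysplasia and 3 in invasive carcinoma against hyperplasia. Leaving out the 7 salivary-rich samples, added after seeing the data, gave 3 in carcinoma in situ against normal, 2 in carcinoma in situ against dysplasia and 3 in invasive carcinoma against hyperplasia. The cause of these differences was not tested.

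Numbers in the sample codes recur across stages, and the labels do not say whether they pair samples. Of 31 same-numbered pairs, 11 deviated together with r over 0.1 (range -0.564 to 0.512). Pairs with different numbers were not compared, so this check cannot decide whether samples are paired. With the number as a replicate block, 1 gene was called in dysplasia against hyperplasia, 0 in carcinoma in situ against dysplasia and 1 in invasive carcinoma against hyperplasia. Numbers 9, 10, 11 and 12 each occur in a single sample. In that fit C09, C10, C11 and C12 therefore add nothing to the stage differences, and changed calls there cannot be credited to pairing. Against normal the block lost Myc in hyperplasia (0.49, adjusted p = 0.0513), Cdkn2c in dysplasia (-0.33, adjusted p = 0.0769) and Ccnd1 in invasive carcinoma (0.40, adjusted p = 0.0897), and gained Ccnd2 in dysplasia (adjusted p = 0.0348) and Ccnd3 in invasive carcinoma (adjusted p = 0.0463).

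With each sample left out in turn, 1 to 4 of the 9 genes were called in hyperplasia, 1 to 6 in dysplasia, 4 to 6 in situ and 5 to 6 in invasive carcinoma against normal, 0 to 2 at the steps into dysplasia and into carcinoma in situ, 0 between the carcinomas, 4 to 6 between hyperplasia and invasive carcinoma and 7 among the 5 stages. The Ccnd1 share against normal ranged from -2.22 to -0.238 points in hyperplasia, 6.51 to 8.49 in dysplasia, 6.65 to 8.63 in situ and 8.63 to 10.92 in invasive carcinoma, and from 9.98 to 11.96 between hyperplasia and invasive carcinoma. The Cdk4 share ranged from -1.15 to -0.754, -0.992 to -0.742, -1.58 to -0.535 and -2.29 to -1.21 points against normal in stage order, and from -1.29 to -0.206 between hyperplasia and invasive carcinoma. It was called in hyperplasia without A05 (exact permutation adjusted p = 0.0278) or A07 (exact permutation adjusted p = 0.0417).

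Over all genes, 8127 were called in invasive carcinoma against normal, 1784 with the muscle score, 688 with the keratinocyte score and 3759 with the block, where C09 and C12 add nothing. In carcinoma in situ against normal the 6630 calls became 2603 and 646 with the muscle and keratinocyte scores, and in dysplasia the 4540 became 699 and 1508, and 6865 by limma-voom. In hyperplasia the 2519 became 4645 by limma-voom. Without normal sample D02 alone, the calls against normal, on which the background shares rest, were 926 in hyperplasia, 1282 in dysplasia and 4238 in situ. Over all fits that left out 1 sample they ran from 507 to 1486 in dysplasia against hyperplasia and from 164 (without C07) to 2201 (without C04) in carcinoma in situ against dysplasia. Shifts over 1.5 times at the steps between lesion stages ran from 200 to 2391 for the 964 calls of carcinoma in situ against dysplasia, from 473 to 3600 for the 914 of dysplasia against hyperplasia and from 277 to 1684 for the 6768 of invasive carcinoma against hyperplasia. Among the 5 stages the 9384 calls became 5308 and 2905 with the muscle and keratinocyte scores.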
